A study of Homo sapiens with 4 samples.

Results

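The 10 genes described here encode the hypoxia-inducible factor (HIF) subunits and the enzymes that sense oxygen for them. They are the α subunits HIF1A, EPAS1 (HIF-2α) and HIF3A, the β subunits ARNT and ARNT2, the prolyl hydroxylases EGLN1 (PHD2), EGLN2 (PHD1) and EGLN3 (PHD3), the asparaginyl hydroxylase HIF1AN (FIH) and the ubiquitin ligase subunit VHL. They were chosen by gene symbol, and all 10 are among the 48162 genes of the deposited expression table. Polyadenylated RNA of MDA-MB-231, a human breast cancer cell line, was sequenced after 24 h with vehicle control or with MGH-CP1 at 10 µM, in 2 libraries per condition. The sample labels give this dose in µM, whereas the study's methods write the same figure in mM. MGH-CP1 is a small molecule that blocks the autopalmitoylation of TEAD, the transcription factor through which YAP and TAZ act. The cells are a single established line, and no source used here says that the 2 libraries of a condition came from separate cultures, so every p-value measures the spread between libraries, which may be technical. No oxygen tension was given in the labels, and every value below is an RNA level.

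As background, an α subunit pairs with ARNT or ARNT2 and binds hypoxia response elements near genes of glycolysis, blood vessel growth and pH control. When oxygen is present, the prolyl hydroxylases modify the α subunit, VHL recognises the hydroxylated form, and the protein is ubiquitinated and degraded. FIH hydroxylates an asparagine of the α subunit and thereby blocks its contact with the coactivators p300 and CBP. All of these hydroxylases need oxygen, iron and 2-oxoglutarate. EGLN1 and EGLN3 are themselves induced by HIF, which makes the pathway self-limiting. Since the control of the α subunits is mainly at the protein level, RNA alone does not give the activity of the pathway.

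Promoter sequences are shown for α subunits and prolyl hydroxylases, because most of the genes called below belong to these families. They cover 250 bases before to 50 bases after the annotated start, 5′ to 3′ on the strand of the gene, from RefSeq on GRCh38.p14. Of the 10 genes, 8 had an entry, with 12 entries in all. The letters searched on both strands were ACGTG and GCGTG, the forms of the hypoxia response element core, and GGAATG, the core of the TEAD motif. Any match is in capitals, as is the whole E-box CACGTG, which contains ACGTG on each strand.
The first HIF1A entry lies at chr14:61695263-61695562 on the plus strand.
HIF1A promoter: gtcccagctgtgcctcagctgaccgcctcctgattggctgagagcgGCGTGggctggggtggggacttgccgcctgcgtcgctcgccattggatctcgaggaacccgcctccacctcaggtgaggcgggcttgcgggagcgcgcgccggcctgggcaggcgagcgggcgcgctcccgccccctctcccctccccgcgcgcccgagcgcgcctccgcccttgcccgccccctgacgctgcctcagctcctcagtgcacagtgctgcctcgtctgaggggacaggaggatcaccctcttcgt
The EPAS1 entry lies at chr2:46297157-46297456 on the plus strand.
EPAS1 promoter: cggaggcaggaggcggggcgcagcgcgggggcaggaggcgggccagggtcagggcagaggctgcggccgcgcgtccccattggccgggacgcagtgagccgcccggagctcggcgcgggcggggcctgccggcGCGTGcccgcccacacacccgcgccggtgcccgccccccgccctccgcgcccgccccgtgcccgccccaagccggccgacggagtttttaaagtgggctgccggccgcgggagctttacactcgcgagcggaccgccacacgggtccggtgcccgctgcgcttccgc
The EGLN1 entry lies at chr1:231422238-231422537 on the minus strand.
EGLN1 promoter: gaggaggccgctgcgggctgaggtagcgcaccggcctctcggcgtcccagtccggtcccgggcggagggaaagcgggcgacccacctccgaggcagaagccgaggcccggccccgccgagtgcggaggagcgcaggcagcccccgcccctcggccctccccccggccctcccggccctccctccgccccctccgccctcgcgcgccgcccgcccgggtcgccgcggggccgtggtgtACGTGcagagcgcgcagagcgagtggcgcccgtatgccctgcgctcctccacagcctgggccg
The first EGLN2 entry lies at chr19:40798941-40799240 on the plus strand.
EGLN2 promoter: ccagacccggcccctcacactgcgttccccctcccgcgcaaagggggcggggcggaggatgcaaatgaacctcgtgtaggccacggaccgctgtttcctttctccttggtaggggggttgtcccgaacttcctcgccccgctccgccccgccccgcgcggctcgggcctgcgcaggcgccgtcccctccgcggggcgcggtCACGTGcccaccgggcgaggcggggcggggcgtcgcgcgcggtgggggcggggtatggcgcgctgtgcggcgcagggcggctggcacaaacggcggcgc
The EGLN3 entry lies at chr14:33951025-33951324 on the minus strand.
EGLN3 promoter: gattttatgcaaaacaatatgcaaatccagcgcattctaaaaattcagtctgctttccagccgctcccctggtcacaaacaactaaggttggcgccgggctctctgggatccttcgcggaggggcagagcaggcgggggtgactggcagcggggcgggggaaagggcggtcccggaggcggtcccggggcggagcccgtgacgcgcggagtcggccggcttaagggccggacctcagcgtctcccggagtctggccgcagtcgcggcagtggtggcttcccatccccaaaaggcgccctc
ACGTG was found in 2 of the 12 entries, those shown for EGLN1 and EGLN2, and the match in EGLN2 is the palindrome CACGTG. A match to GCGTG was found in 3 entries, those shown for HIF1A and EPAS1 and the first entry of HIF3A. GGAATG was found in 0 of the 12. Over all 35116 promoters of the same length, 21.4% held ACGTG, 36.5% held GCGTG, 14.0% held GGAATG and 7.26% held CACGTG. A match describes letters and not a bound site, and a window with no match says nothing about the factor.

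Fragments on genes numbered 25455533 and 25508824 for the vehicle control and 17997221 and 17577930 for MGH-CP1. Mitochondrial genes took 0.447% and 0.418% of them in the vehicle control and 1.57% and 1.53% with MGH-CP1, and with totals taken without those genes the calls of the genes described here were the same. Levels are in FPKM, in which fragments are divided by gene length and by the total on genes of the library. Genes can then be compared with each other, given the fixed length deposited for each. The fold changes below are differences of log2(FPKM + 1) from limma over 12080 genes with a mean of at least 1 FPKM, and a gene was called when its Benjamini-Hochberg adjusted p over those genes was under 0.05. This scale understates the change of genes with low levels. The TEAD-YAP targets CYR61, CTGF and ANKRD1, which serve as a check of the treatment, fell by 0.75, 0.66 and 0.66 on the log2 scale. All 6 markers of a basal mesenchymal line were expressed, with sums of 1534 and 1535 FPKM in the vehicle control and between 1276 and 1313 FPKM with MGH-CP1. Of these, AXL, CAV1 and EGFR fell by 0.76, 0.49 and 0.46, and the part of this in the results was not tested. Of the 6 luminal markers, EPCAM was at 12.3 to 16.4 FPKM and GATA3 at 4.17 to 5.66 FPKM, and the other 4, the hormone receptors ESR1 and PGR among them, had means under 1 FPKM. The luminal sum was 17.9 to 19.8 FPKM in the vehicle control and 19.0 to 21.2 FPKM with MGH-CP1, and neither EPCAM nor GATA3 was called. EPAS1 is also known from endothelium, whose defining markers CDH5 and ERG were at 0 in every library, and the endothelial markers in the table summed to 1.33 to 1.56 FPKM in the vehicle control and 0.964 to 1.23 with MGH-CP1, nearly all of it KDR. The 5 leukocyte markers summed to 1.79 to 2.48 FPKM in the vehicle control and 3.32 to 4.09 with MGH-CP1. Of these, CD14 was called higher, PTPRC was at most 0.0321 FPKM, and CD3E was at 0 in every library. In bulk RNA, a change in the share of cells that express a gene and a change in RNA per cell cannot be told apart.

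With MGH-CP1, HIF1A, EPAS1, EGLN3, HIF1AN and VHL rose, 5 of 8 genes tested, and 0 fell. Over all genes tested, 27.1% were called higher and 23.8% lower, so calls were common in this comparison. EGLN2 was also called higher, but it is left out of this count, because its mean was 0.645 FPKM in the vehicle control and it passed the filter of 1 FPKM only through the MGH-CP1 libraries, where it was higher. ARNT, ARNT2 and EGLN1 were not called, and HIF3A was not detected. The log2 fold changes of the 8 genes were all above 0, from 0.07 for ARNT2 to 0.49 for EGLN3, with a median of 0.23. Over all genes tested the median was 0.01 and 51.8% were above 0. Both MGH-CP1 libraries lay above both vehicle control libraries for 6 of the 8 genes, against 39.8% of all genes tested, and below them for 0, against 37.4%. Of the genes tested, 11.0% had a higher fold change than EGLN3 and 21.5% a higher one than HIF1A, and for the others of the 8 this share was between 24.7% for EPAS1 and 43.8% for ARNT2. The calls depended on the variance that limma borrows across genes, and without it 0 of these genes was called, against 9 of all genes called higher (3 of these genes, EGLN2 included, had an unadjusted p under 0.05).

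**Figure D1:**
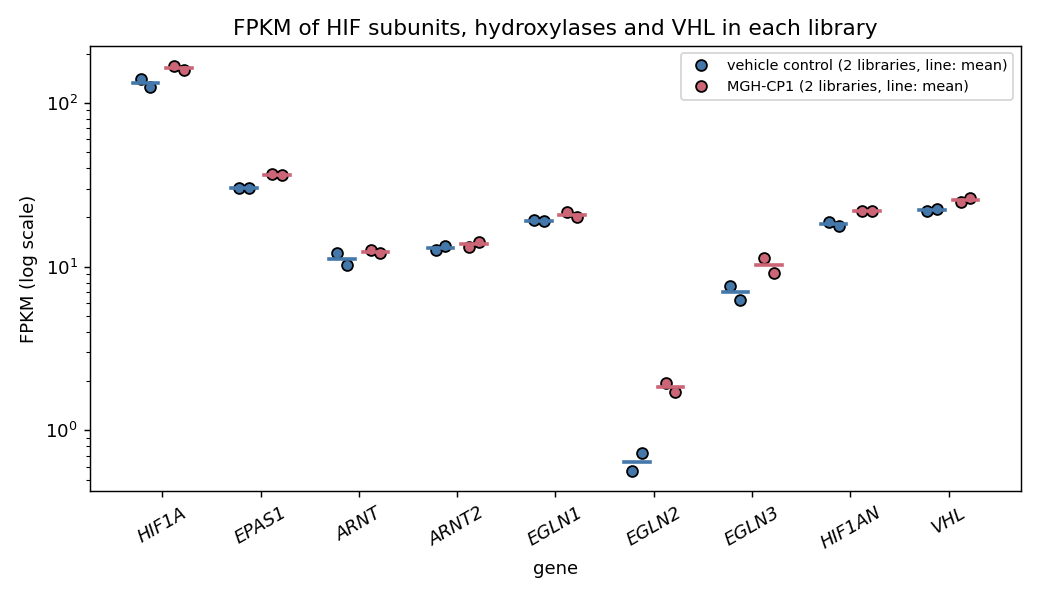
Level of the 9 genes detected, in FPKM on a log axis, with 1 point per library (blue for vehicle control, red for MGH-CP1) and a line at each mean of 2 libraries. The libraries of the conditions are apart for HIF1A, EPAS1, EGLN1, EGLN2, EGLN3, HIF1AN and VHL and overlap for ARNT and ARNT2. HIF3A, at 0, is left out.

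HIF1A, the α subunit that most cell types express, had the highest level of the 10 genes. It was at 140.2 and 124.6 FPKM in the vehicle control and at 167.8 and 158.4 FPKM with MGH-CP1. The lower MGH-CP1 library was above the higher control library. The mean rose from 132.4 ± 11.0 (SD, n = 2) to 163.1 ± 6.63 FPKM (SD, n = 2), a ratio of 1.23, with a log2 fold change of 0.30 (SE 0.06, 95% interval 0.15 to 0.45, limma adjusted p = 0.00545). Without the filter on low values it was not called, with an adjusted p of 0.0802. Each library held 10922 to 13998 fragments of HIF1A (ENSG00000100644, chromosome 14, 62162231 to 62214976, plus strand, hg19). Its level over the 4 libraries was above 97.4% of the genes tested. HIF1A-AS2, an antisense gene that overlaps it, had 9 to 31 fragments a library.

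EPAS1, the second α subunit, which shares the oxygen-dependent control of HIF1A but has a partly different set of targets, also rose. Its levels were 30.4 and 30.2 FPKM in the vehicle control and 36.6 and 36.2 FPKM with MGH-CP1. The replicates of EPAS1 lay closer together than those of HIF1A, at 30.3 ± 0.142 (SD, n = 2) and 36.4 ± 0.263 FPKM (SD, n = 2). The ratio was 1.20 and the log2 fold change 0.26 (SE 0.05, 95% interval 0.14 to 0.37, limma adjusted p = 0.00326). EPAS1 (ENSG00000116016, chromosome 2, 46520806 to 46613836, plus strand) overlaps no other gene of the table and had 3287 to 3993 fragments a library.

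HIF3A, whose shorter splice forms can act against the other α subunits, was at 0 in all 4 libraries (ENSG00000124440, chromosome 19, 46800303 to 46846690, plus strand). It entered no test. With 0 fragments, a count of up to 3 fragments a library is allowed by counting error.

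The shares of the α subunits overlapped between the conditions. HIF1A made up 82.2% and 80.5% of their summed FPKM in the vehicle control and 82.1% and 81.4% with MGH-CP1, with EPAS1 as the remainder. The difference in the share of HIF1A was 0.40 percentage points (exact permutation test, two-sided, p = 1), less than the spread between the control libraries. With 2 libraries against 2, an exact permutation test cannot give a p below 0.33, so these shares are descriptions.

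ARNT and ARNT2, the partners of the α subunits, are not degraded in response to oxygen, and neither was called. ARNT, which also pairs with the aryl hydrocarbon receptor, was at 12.1 and 10.3 FPKM in the vehicle control and at 12.6 and 12.05 FPKM with MGH-CP1. The lower MGH-CP1 library fell between the control libraries. Its log2 fold change was 0.13 (95% interval -0.06 to 0.32, limma adjusted p = 0.224), and without vehicle control replicate 1 it was 0.24 with an adjusted p of 0.0462, while without vehicle control replicate 2 it was 0.02 with an adjusted p of 0.861. ARNT2, best known from neurons, was at 12.7 and 13.3 FPKM in the vehicle control and at 13.2 and 14.1 FPKM with MGH-CP1, which overlap. Its log2 fold change was 0.07 (95% interval -0.08 to 0.22, limma adjusted p = 0.422). The upper bounds of 0.32 for ARNT and 0.22 for ARNT2 stand beside the estimate of 0.26 for EPAS1.

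The α subunits were in excess of the β subunits at the RNA level. The summed FPKM of the α subunits was 6.87 and 6.56 times that of ARNT and ARNT2 in the vehicle control and 7.92 and 7.43 times with MGH-CP1. The ratio was higher in both MGH-CP1 libraries, by 0.965 on average, and the exact permutation p was 0.33, the lowest this design allows. ARNT made up 48.8% and 43.6% of the β subunits in the vehicle control and 48.8% and 46.0% with MGH-CP1, which overlap. ARNT (ENSG00000143437) lies on chromosome 1 from 150782181 to 150849244 on the minus strand and ARNT2 (ENSG00000172379) on chromosome 15 from 80696692 to 80890278 on the plus strand.

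**Figure D2:**
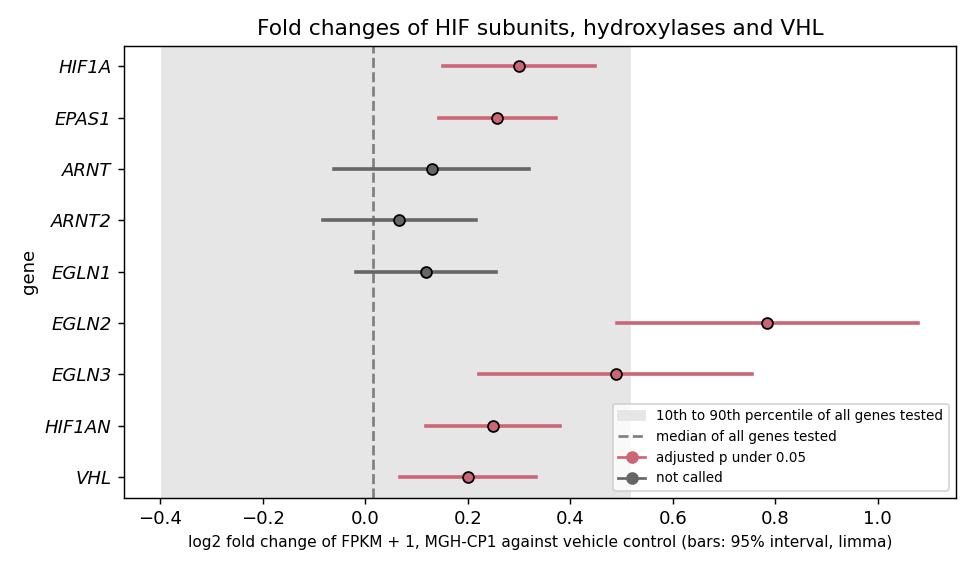
Log2 fold change (MGH-CP1 against vehicle control, log2(FPKM + 1) scale) of the 9 genes tested, with points for the estimates and bars for 95% intervals, red where the gene was called and grey where it was not. The dashed line marks the median of all genes tested and the grey band their 10th to 90th percentile (-0.40 to 0.52). EGLN2 at 0.78 and EGLN3 at 0.49 are farthest to the right, and the intervals of ARNT, ARNT2 and EGLN1 include 0. EGLN2 passed the filter only through the MGH-CP1 libraries, so its colour and bar are not read as a test.

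Of the prolyl hydroxylases, EGLN3 rose, EGLN1 was not called, and EGLN2, near the limit of the filter, was higher with MGH-CP1. EGLN1, the main hydroxylase of HIF in most cells, was at 19.2 and 18.9 FPKM in the vehicle control and at 21.5 and 20.1 FPKM with MGH-CP1. Both MGH-CP1 libraries were above both control libraries, yet the gene was not called, with a log2 fold change of 0.12 (95% interval -0.02 to 0.25, limma adjusted p = 0.128). It is on chromosome 1 from 231499497 to 231560790 on the minus strand (ENSG00000135766) and had 2508 to 3476 fragments a library.

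EGLN3, a hydroxylase known for its strong induction by HIF, was at 7.67 and 6.29 FPKM in the vehicle control and at 11.3 and 9.11 FPKM with MGH-CP1. The groups did not overlap, although the replicates in each were far apart. The means were 6.98 ± 0.9746 and 10.2 ± 1.56 FPKM (SD, n = 2 each), a ratio of 1.46, and the log2 fold change was 0.49 (SE 0.12, 95% interval 0.22 to 0.76, limma adjusted p = 0.00862). Without MGH-CP1 replicate 1 it was 0.35 and was not called, with an adjusted p of 0.0596, nor was it called without the filter on low values, with an adjusted p of 0.113. EGLN3 (ENSG00000129521, chromosome 14, 34393437 to 34931980, minus strand) spans SPTSSA on the same strand, which had a log2 fold change of -0.12 (limma adjusted p = 0.115), opposite in sign to EGLN3.

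EGLN2, a hydroxylase noted as estrogen-inducible in breast cancer cells, had the largest ratio and the lowest level of the genes detected. It was at 0.565 and 0.725 FPKM in the vehicle control and at 1.94 and 1.72 FPKM with MGH-CP1. Its fragments numbered 56 and 72 without the compound and 136 and 118 with it, although the MGH-CP1 libraries held fewer fragments in total. The mean went from 0.645 ± 0.113 to 1.83 ± 0.153 FPKM (SD, n = 2 each), a ratio of 2.84, while the log2 fold change on the log2(FPKM + 1) scale was 0.78. Since EGLN2 passed the filter only through the libraries where it was high, its interval and adjusted p among the filtered genes are not given. In the fit of all genes with any fragment, which does not select on level, the limma adjusted p was 0.0264. The estimate depends on the scale at this level, and was 1.51 with limma voom on the recovered fragments and 1.38 with a pseudocount of 0.1. EGLN2 (ENSG00000269858, chromosome 19, 41304901 to 41314338, plus strand) overlaps the readthrough gene RAB4B-EGLN2, listed at 0 in every library. In GENCODE release 29, 30.6% of the exon bases of EGLN2 are shared with that gene on the same strand. How fragments on shared exons were assigned is not given in the sources used here, and the part of this sharing in the low level of EGLN2 was not tested.

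Within the prolyl hydroxylases, EGLN1 took a smaller share with MGH-CP1. Its share of their summed FPKM was 70.0% and 73.0% in the vehicle control and 61.9% and 64.99% with MGH-CP1, a difference of -8.06 percentage points. EGLN3 went from 27.9% and 24.3% to 32.5% and 29.4%, a difference of 4.91 points, and EGLN2 from 2.06% and 2.80% to 5.58% and 5.57%, a difference of 3.15 points. The difference for EGLN3 was 3.08 points without vehicle control replicate 2. With fragments not divided by length, the differences were -5.47 points for EGLN1, 3.19 points for EGLN3 and 2.28 points for EGLN2. For each of the 3 shares the libraries of the conditions did not overlap, and the exact permutation p was 0.33, the floor. A share within a library does not move with the scaling between libraries. All 3 shares take EGLN2 at its listed level, and the part in them of the exons it shares with RAB4B-EGLN2 was not tested.

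**Figure D3:**
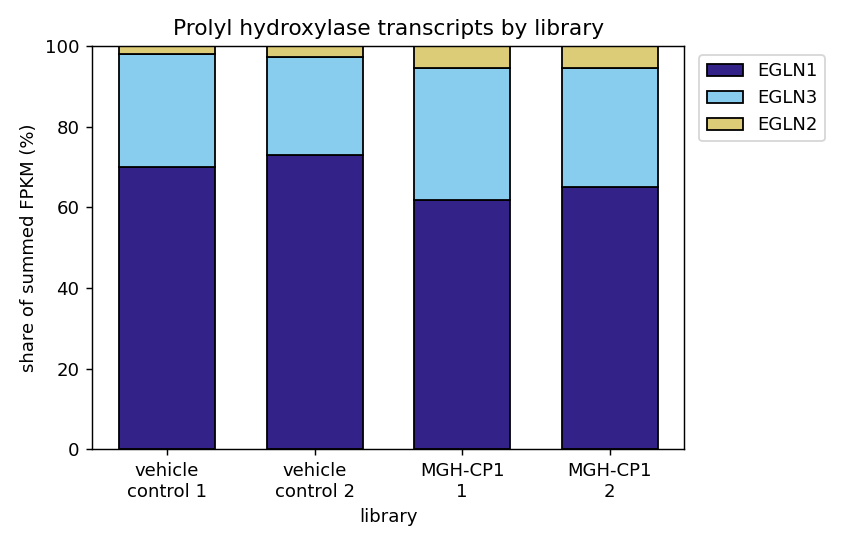
Share of EGLN1, EGLN2 and EGLN3 in the summed FPKM of the prolyl hydroxylases, in percent, with 1 stacked bar per library. EGLN1 takes 70.0% and 73.0% of the bar in the vehicle control and 61.9% and 64.99% with MGH-CP1.

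HIF1AN, the asparaginyl hydroxylase, rose as well. It was at 18.7 and 17.8 FPKM in the vehicle control and at 21.8 and 22.01 FPKM with MGH-CP1, with no overlap. The means were 18.3 ± 0.680 and 21.9 ± 0.141 FPKM (SD, n = 2 each), a ratio of 1.20, with a log2 fold change of 0.25 (SE 0.06, 95% interval 0.12 to 0.38, limma adjusted p = 0.00719). The 5′ end of HIF1AN (ENSG00000166135, chromosome 10, 102288829 to 102309763, plus strand) overlaps SEC31B on the other strand over 800 bases and NDUFB8 over 929 bases. SEC31B was at 0.533 and 0.894 FPKM in the vehicle control and at 2.76 and 2.87 FPKM with MGH-CP1, with 69 to 257 fragments a library against 1168 to 1441 for HIF1AN. NDUFB8 had 5 and 10 fragments in the vehicle control and 11 and 17 with MGH-CP1. Whether the counting used strand is not given in the sources used here, and the part of these genes in the rise of HIF1AN was not tested.

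VHL, the substrate-binding subunit of the ligase, was at 21.7 and 22.6 FPKM in the vehicle control and at 24.9 and 26.4 FPKM with MGH-CP1. The groups did not overlap. The means were 22.2 ± 0.621 and 25.7 ± 1.07 FPKM (SD, n = 2 each), a ratio of 1.16, with a log2 fold change of 0.20 (SE 0.06, 95% interval 0.07 to 0.33, limma adjusted p = 0.0199). This was the smallest rise among the genes called and depended on single libraries. Without vehicle control replicate 1 the adjusted p was 0.0794, and without MGH-CP1 replicate 2 it was 0.116, with log2 fold changes of 0.17 and 0.16. Without the filter on low values it was 0.067. VHL (ENSG00000134086) lies on chromosome 3 from 10182692 to 10193904 on the plus strand and overlaps no other gene of the table.

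In the vehicle control, the order of levels was HIF1A, EPAS1, VHL, EGLN1, HIF1AN, ARNT2, ARNT, EGLN3, EGLN2 and HIF3A. HIF1A stood 4.37 times above EPAS1, and EGLN3 stood 10.8 times above the listed level of EGLN2. The part in that level of the exons EGLN2 shares with RAB4B-EGLN2 was not tested. The closest neighbours were EGLN1 and HIF1AN, with a ratio of 1.04. They changed places with MGH-CP1, where HIF1AN was 1.05 times EGLN1, and the rest of the order was the same. In each condition the 2 values of every neighbouring pair of detected genes did not overlap, although a range of 2 libraries is a coarse measure of spread. The order also rests on the fixed length deposited for each gene. For HIF1AN it was 3019 bases, against 13950 exon bases in GENCODE release 29, and for EGLN1 7097 against 7265. In fragments, vehicle control replicate 1 held 3476 of EGLN1 and 1441 of HIF1AN. The RNA of the 4 hydroxylases together was 0.271 and 0.282 of that of the α subunits in the vehicle control and 0.277 and 0.272 with MGH-CP1 (exact permutation p = 1), and the libraries of the conditions overlapped.

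**Figure D4:**
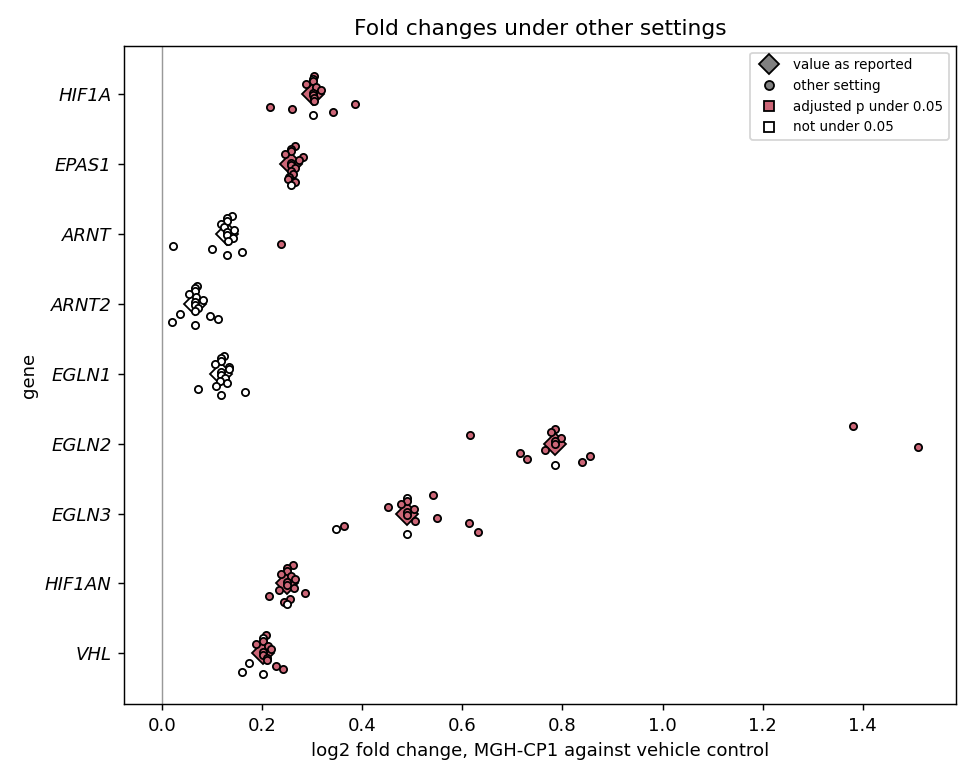
Log2 fold change of the 9 genes tested as reported (diamonds) and under the other settings of the analysis (circles, spread vertically only for legibility), filled where the adjusted p was under 0.05. No estimate is below 0, and that of EGLN2 ranges most widely, up to 1.51. EGLN2 passed the filter only through the MGH-CP1 libraries, so its fill in the filtered fits is not read as a test.

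Further genes of the pathway were read from lists of known partners, regulators and targets. Over all lists, with each gene taken once, 93 of 102 genes were tested, of which 46 were called higher and 13 lower. Of the 46, 27 stand in the list of HIF targets used here. Without that list 19 of 60 genes (31.7%) were called higher and 11 (18.3%) lower, beside the 27.1% and 23.8% of all genes. Of 3 partners of VHL in the ligase tested, 1 (33.3%) was called higher and 0 lower, beside the same shares of all genes. With limma voom on recovered fragments, 1 was called lower. TCEB2, which encodes elongin B, rose from 117.2 ± 1.66 to 138.6 ± 1.91 FPKM (SD, n = 2 each; log2 fold change 0.24, limma adjusted p = 0.00291), and the list median was -0.00. RBX1, the ring subunit, was below the filter at 0.314 to 0.742 FPKM.

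Among 8 transcription cofactors of HIF, 2 (25%) were called higher and 1 (12.5%) lower, with a median of -0.06. The counts called higher and lower were 1 and 3 with quantile normalization, and 2 and 4 with limma voom on recovered fragments. All genes tested had 27.1% called higher and 23.8% lower. PKM, a pyruvate kinase of glycolysis, rose by 0.34 (limma adjusted p = 0.000917) and CITED2, which competes with HIF for p300, rose by 0.31 (limma adjusted p = 0.00246). CREBBP, which encodes the coactivator CBP, fell by 0.36 on the log2 scale, from 13.4 ± 0.346 to 10.2 ± 0.0844 FPKM (SD, n = 2 each; limma adjusted p = 0.00182).

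Of the other factors with the same bHLH-PAS fold, 7 of 11 were tested, 4 rose and 2 fell, with a median of 0.32. These are 57.1% and 28.6% of a small list, beside the 27.1% and 23.8% of all genes. AHR, the aryl hydrocarbon receptor and a further partner of ARNT, went from 39.8 and 35.3 FPKM to 52.1 and 53.3 FPKM (log2 fold change 0.48, limma adjusted p = 0.000553). NPAS1 rose by 0.59 and NPAS2 by 0.36, while the circadian factors ARNTL2 and CLOCK fell by 0.56 and 0.36.

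Of 15 genes that act on the stability of HIF or of its hydroxylases, 4 were called higher and 6 lower, with a median of -0.09. These are 26.7% and 40% of the list, beside the 27.1% and 23.8% of all genes. HSP90AA1 and HSP90AB1, the cytosolic HSP90 chaperones that protect α subunits from degradation, fell by 0.60 and 0.45. HSP90AA1 was at 573.9 and 538.5 FPKM in the vehicle control and at 360.4 and 371.9 FPKM with MGH-CP1. SENP1, a SUMO protease, fell by 0.50. FKBP8, which binds PHD2 and targets it for degradation, was at 156.6 and 175.8 FPKM in the vehicle control and at 253.3 and 239.5 FPKM with MGH-CP1, a log2 fold change of 0.57 (limma adjusted p = 0.000248). WSB1, a ubiquitin ligase subunit that acts on VHL, rose by 0.43, and USP20, a deubiquitinase of HIF-1α, rose by 0.39.

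Of the other dioxygenases that use oxygen, 21 of 23 were tested, 9 rose and 1 fell, or 42.9% and 4.76% beside the 27.1% and 23.8% of all genes, with a median of 0.10. Without the genes that also stand in the HIF target list, 6 of 17 (35.3%) rose and 1 fell. The histone demethylases KDM6B and KDM4B rose by 0.65 and 0.64, and P4HTM, a transmembrane prolyl hydroxylase that can act on HIF-α, rose from 4.47 ± 0.340 to 7.24 ± 0.677 FPKM (SD, n = 2 each; log2 fold change 0.59, limma adjusted p = 0.0011). OGFOD1, a ribosomal prolyl hydroxylase, fell by 0.39. Of 10 enzymes that make or use 2-oxoglutarate, succinate or fumarate, IDH1 and SDHC rose by 0.67 and 0.21 and fumarate hydratase, FH, fell by 0.53, with a median of -0.02. FH was at 59.3 and 58.6 FPKM in the vehicle control and at 39.1 and 41.9 FPKM with MGH-CP1, while IDH1 went from 29.9 and 30.4 FPKM to 50.3 and 46.6 FPKM.

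The known targets of HIF had the highest share of calls of these lists. Of 33 tested among 35, 27 (81.8%) were called higher and 2 (6.06%) lower, beside the 27.1% and 23.8% of all genes. The list median was 0.48. ANGPTL4, a secreted inhibitor of lipoprotein lipase, was at 3.55 and 3.88 FPKM in the vehicle control and at 15.8 and 13.7 FPKM with MGH-CP1, a log2 fold change of 1.74 (limma adjusted p = 1.50e-05). MIR210HG, the host transcript of a hypoxia-induced microRNA, went from 3.10 and 3.53 FPKM to 12.4 and 13.9 FPKM. CA12, a membrane carbonic anhydrase, rose by 1.40. SLC2A1, the glucose transporter GLUT1, fell by 0.16 on the log2 scale, from 257.9 ± 1.44 to 230.6 ± 0.374 FPKM (SD, n = 2 each; limma adjusted p = 0.016). KDM3A, KDM4B, P4HA1 and PLOD2 stand in this list and in that of the dioxygenases. The target list was drawn up with earlier results of these libraries known, so its count is not independent evidence of a direction.

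**Figure D5:**
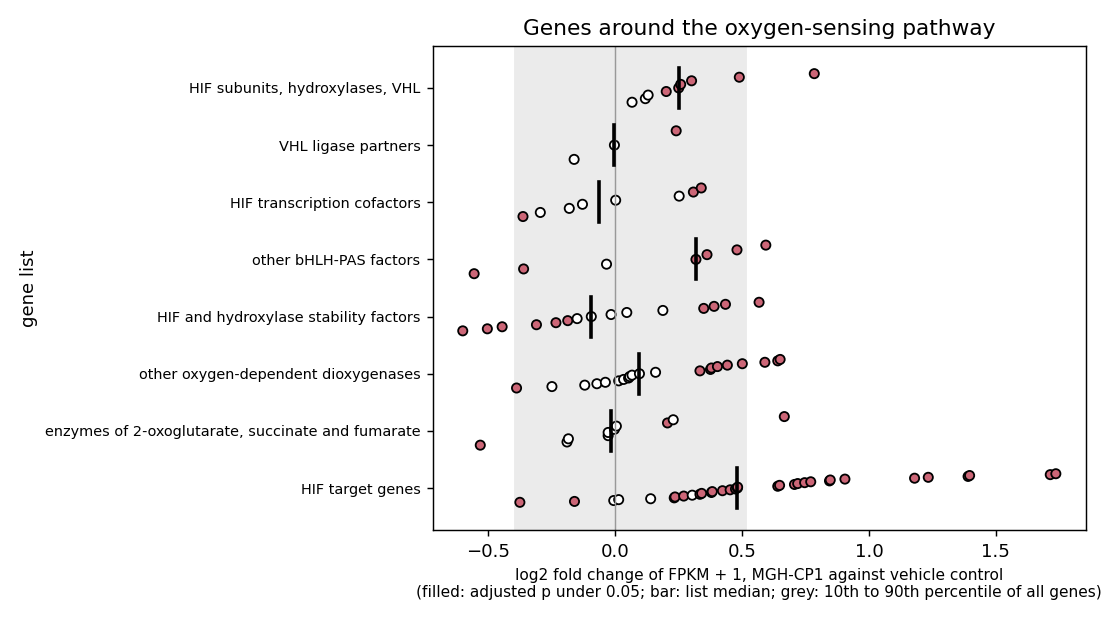
Log2 fold change (MGH-CP1 against vehicle control) of each tested gene of the 7 lists and of the HIF subunits, hydroxylases and VHL, with 1 point per gene, filled where it was called, a bar at each list median and a grey band for the 10th to 90th percentile of all genes tested. The targets of HIF have a median of 0.48, and the stability factors hold 6 genes called lower and 4 called higher. The fill of EGLN2 comes from the filtered fit and is not read as a test.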

How the data were processed

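RNA of 4 MDA-MB-231 samples, 2 with vehicle control and 2 with MGH-CP1, had been poly-T selected and sequenced in paired ends. Expression of 48162 genes was deposited by the authors in FPKM, beside each gene's symbol, position and a fixed length. The submitters' processing notes name CASAVA 1.8, STAR and the build hg19; the counting tool, annotation release and strand setting are not given in the sources used here. Columns were matched to samples by condition and replicate number, the vehicle control being named by its solvent in the table. FPKM times length gave whole fragments for 100% of values within 0.02, and these recovered fragments gave the depths and fragment numbers. Replicates differed by more than sampling noise. FPKM divides by each library's own total, so a gene's value also moves with the rest of the library.

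The 12080 genes with a mean of at least 1 FPKM were compared as log2(FPKM + 1) with limma 3.58.1 in R 4.3.3 (eBayes with trend, two-sided, Benjamini-Hochberg over all genes tested, threshold 0.05). Shares were compared by exact permutation of libraries. Scripts were tested on simulated data. Figures were drawn with matplotlib 3.10.9. The genes and lists were chosen with earlier results of these data known. The rule names all 10 genes, the genes that overlap them, the 3 treatment check genes and, of each list, the called genes with the 3 largest rises and 3 largest falls. Other list genes are counted only, and a few genes that the rule or the marker lists hold are not reported here. Alternatives were a pseudocount of 0.1, no filter, a mean of at least 5 FPKM, median-ratio scaling, quantile normalization, totals without mitochondrial genes, the replicate block, no trend, limma voom on recovered fragments, thinning to equal depth and leaving out each library. A fit without shared variance, and counts without EGLN2 and without the HIF targets, were added after the data were seen. Apart from RAB4B-EGLN2, overlapping genes at 0 to 5 fragments a library are not described singly.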

Additional observations from a re-analysis of the deposited data

How the results depend on the processing

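With 2 libraries per condition, the calls depend on limma pooling the variance over genes. Without that pooling, a setting chosen after the data were seen, 9 genes were called higher and 4 lower. That setting called 0 of the HIF subunits, hydroxylases and VHL, 0 list genes in either direction and 0 HIF targets in either direction, although 4947 genes, 3 of the HIF subunits, hydroxylases and VHL and 60 list genes had an unadjusted p under 0.05. Their adjusted p then ran from 0.0555 for EPAS1 to 0.210 for EGLN3 among the 6 with a call, EGLN2 included. Without the filter on low values, 1844 genes were called lower, and 3 of the 6 kept their call (EPAS1, EGLN2 and HIF1AN), whereas HIF1A, EGLN3 and VHL had adjusted p of 0.0802, 0.113 and 0.067. HIF targets called lower numbered 1 without the filter, 1 without the trend and 3 with quantile normalization, where list genes called lower numbered 19. Without the genes of the HIF target list, 19 list genes were called higher. Leaving out each library leaves 1 library in that condition and could change which of the 9 genes were called. It moved the log2 fold change of ARNT between 0.02 and 0.24 and that of VHL between 0.16 and 0.24. It moved the difference in the HIF1A share of the α subunits between -0.445 and 1.25 percentage points, that of EPAS1 between -1.25 and 0.445, that of ARNT in the β subunits between -1.39 and 3.79, and that of the ratio of hydroxylases to α subunits between -0.00808 and 0.00345, so these have no settled direction. The cause of these changes was not tested. In the replicate block fit, which pairs libraries by number, HIF1A, EPAS1, EGLN3, HIF1AN and VHL were called higher. ARNT, ARNT2 and EGLN1 were not called in it. Of all genes, 3466 were called higher and 3052 lower in that fit. The labels give only a shared number. The differences between replicates correlated by 0.0777 over 12080 genes, a value that cannot show whether the libraries were paired. No alternative turned the sign of a log2 fold change of the 9 genes or called 1 of them lower. EGLN2 could not be tested at a mean of at least 5 FPKM, and its depth of 56 to 136 fragments limits its precision.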
